A study of Mus musculus with 27 samples.

Results

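The genes described here encode 59 splicing factors of the mouse, taken by symbol from the gene-level count table of a study of C9-BACexp mice: 11 SR proteins, 7 SR-related and nuclear speckle proteins, 18 hnRNPs, 3 polypyrimidine tract binding proteins, 5 RBFOX and NOVA proteins, 8 CELF and muscleblind proteins, 3 proteins that recognise the 3′ splice site and 4 STAR proteins. All 59 had a row among the 39338 genes and added sequences of the table, and all 59 were among the 21768 that passed the filter on low counts. The rule that takes them goes by symbol and uses no measured value, though the list was drawn up with earlier results of these data known, and several hnRNPs among them are known binders of the GGGGCC repeat RNA that the transgene of these mice carries.

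Splicing factors decide which exons and introns of a transcript are joined. SR proteins bind exonic enhancers and recruit the splicing machinery, hnRNPs and the PTB proteins often oppose exon use, and the RBFOX, NOVA, CELF, muscleblind and STAR proteins act in selected tissues, neurons and glia among them. Many of these proteins are stored in nuclear speckles, whose cores are built from Son and Srrm2, and many regulate their own transcripts through introns that are retained or exons that trigger decay.

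C9-BACexp mice carry a bacterial artificial chromosome with the human C9ORF72 gene and an expanded repeat on the C57BL/6J background, as 1 transgenic line, and they were compared with C57BL/6J littermates that lack it. Each library came from the motor cortex of 1 mouse, from nuclei sorted for EGFP-KASH, a green fluorescent protein tethered to the nuclear envelope and delivered by an adeno-associated virus of the PHP.eB capsid to all 6 groups. The C9-BACexp mice received a vector with the RNA-cutting enzyme RfxCas13d-N2V8 and crRNA-13 (6 libraries), a guide against the repeat-containing C9ORF72 transcript, or RfxCas13d with the non-targeted guide NTG (6 libraries), or EGFP-KASH only (3 libraries). The C57BL/6J mice received the same 3 treatments (3, 5 and 4 libraries). The labels name the enzyme of the NTG groups RfxCas13d and the study's methods name it RfxCas13d-N2V8. CAG, the promoter of both the enzyme and EGFP-KASH, is not restricted to neurons, and the sort took any nucleus that carried EGFP-KASH. In stained sections of C9-BACexp mice the study saw EGFP-KASH mostly in cells with the neuronal protein NeuN. It saw little in astrocytes and microglia, and it describes no stain for oligodendrocytes.

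The 27 libraries held between 21508829 and 36777972 estimated counts (median 29001126). Levels are given as CPM, the share of a library that a gene takes, scaled to a common total after TMM normalization, and differences on the log2 scale with their standard error (SE). The human C9ORF72 transcripts summed to between 64.1 and 103 CPM in the 15 C9-BACexp libraries, were at 0 in 11 of the 12 C57BL/6J libraries and reached 0.436 CPM in C57BL/6J crRNA-13 library 5. EGFP-KASH was present in every library (9.42 to 110 CPM). The sum of 8 neuron markers ran between 3792 and 5323 CPM, none of them at 0 in all libraries, and markers of oligodendrocytes were present in every library at widely differing levels, from 342 to 4408 summed CPM over 12 genes. In such bulk libraries, fewer nuclei of a cell type and less RNA per nucleus cannot be told apart.

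The first question was which splicing factors differed between C9-BACexp and C57BL/6J mice that had received the non-targeted guide. Of the 59 members, 8 rose and 1 fell in C9-BACexp NTG nuclei. A member was called where its fold change passed 1.2 and its adjusted p was under 0.05, in a fit with 4 factors of unwanted variation (edgeR quasi-likelihood test, all 27 libraries). These 9 are 15.3% of the members, beside 6.6% of all genes tested (4.01% that rose and 2.6% that fell). The 8 that rose were Srrm2, Son, Srrm1, Srsf4, Celf3, Celf4, Celf5 and Qk, by 0.28 to 0.52 on the log2 scale, and Srsf10 fell by 0.26. Their directions balanced out over the whole list, since 30 of 59 members were above 0 and their median difference was 0.002, beside 0.017 over all genes tested. None of the 18 hnRNPs was called in this edgeR fit, and 5 of the 18 had an unadjusted p under 0.05, beside 25.9% of all genes. With the same 4 factors DESeq2 called 11 members, these 9 with Tra2a and Ptbp3, beside 10.3% of all genes, and limma-trend called 8, these 9 without Srsf10, beside 6.71% of all genes, and neither tool called an hnRNP.

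The calls depended on the 4 factors. Without them, edgeR called none of the 59 members and 0.0276% of all genes, and 5 members had an unadjusted p under 0.05, beside 14.1% of all genes. With them, 27 members had an unadjusted p under 0.05, beside 25.9% of all genes. Without the factors the differences of the 8 members that rose lay between 0.25 and 0.46, while the median SE of the members was 0.0765 with the factors and 0.136 without them. The factors came from residuals of a first fit of the same libraries, so they narrow the spread by construction. The edgeR p with the factors can therefore be too small. Between crRNA-13 and NTG in C57BL/6J mice, 11.1% of all genes had an unadjusted edgeR p under 0.05 with the factors and 4.81% without them. The lowest adjusted p among the 9 was 0.459 without the factors, that of Srsf10.

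**Figure D1:**
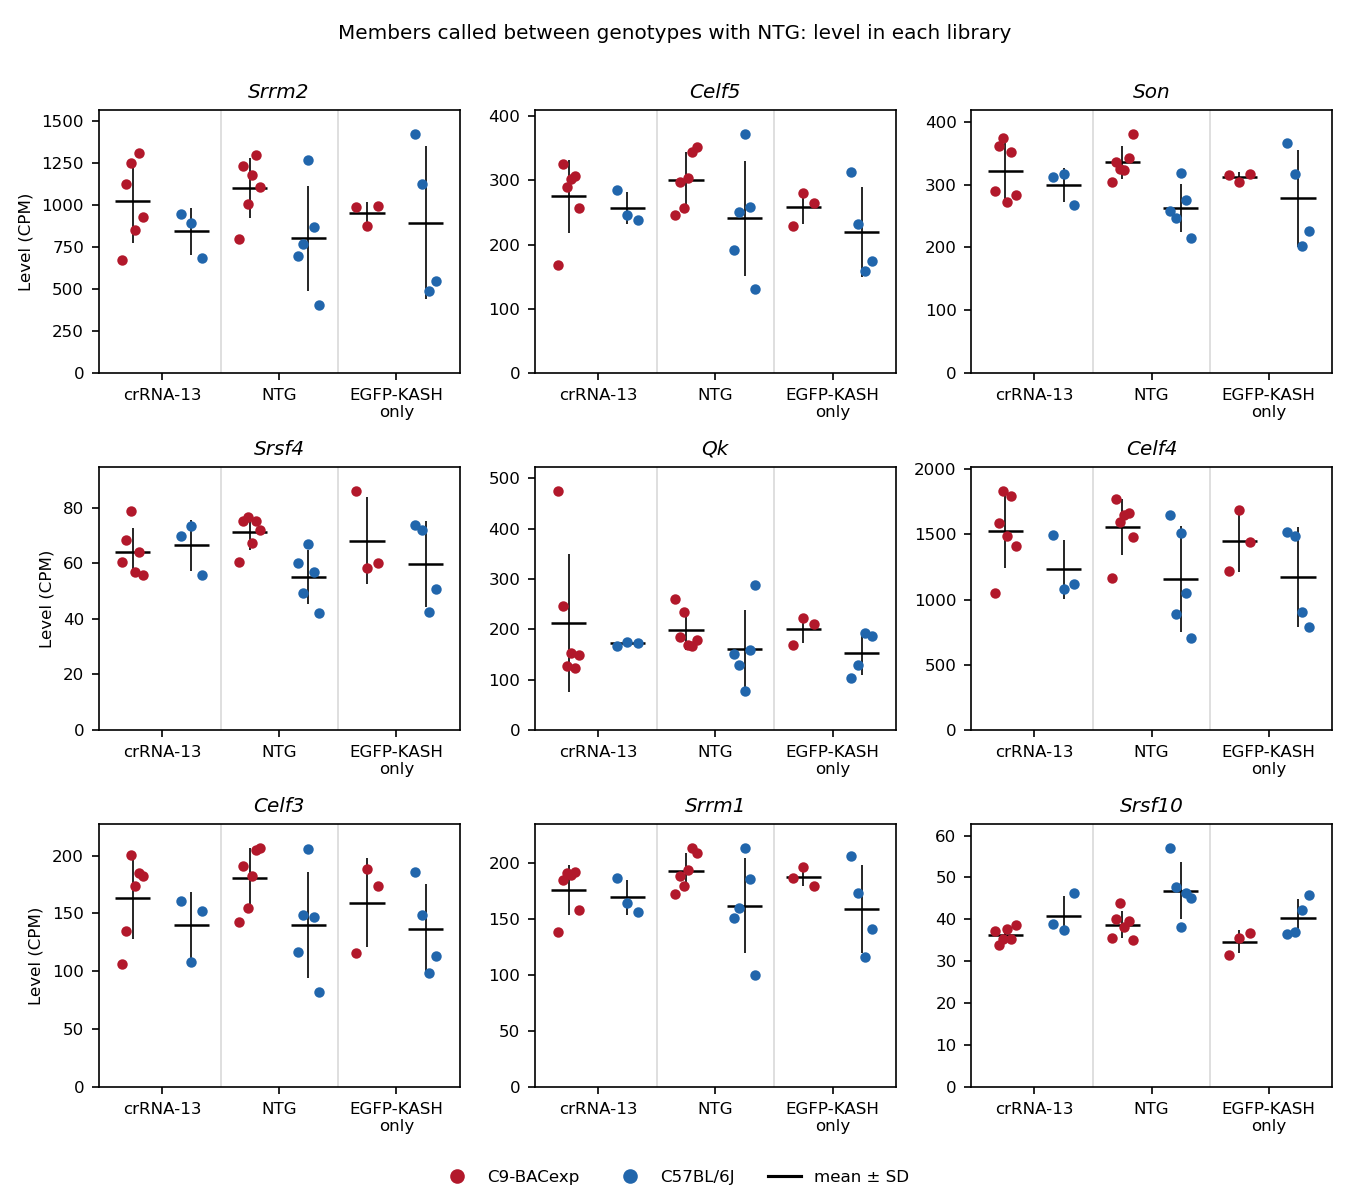
Level in CPM of the 9 members called between genotypes with NTG, 1 panel a member and 1 point a library, C9-BACexp in red and C57BL/6J in blue for crRNA-13, NTG and EGFP-KASH only, with the mean ± SD of each group. Under NTG the 2 genotypes overlap in every panel, and Srrm2 runs between 801 and 1300 CPM in C9-BACexp libraries and between 402 and 1270 CPM in C57BL/6J libraries.

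Among the SR proteins, 1 of 11 rose and 1 fell in C9-BACexp NTG nuclei. Srsf4, an SR protein of constitutive and alternative splicing, lay at a lowest, median and highest level of 60.6, 73.6 and 76.6 CPM in C9-BACexp NTG libraries, against 60.02, 49.2, 66.8, 57.002 and 42.0 CPM in C57BL/6J NTG libraries. Of the 6 C9-BACexp libraries 5 lay above every C57BL/6J library, and the remaining one lay within their range. The difference was 0.38 ± 0.06 (edgeR adjusted p = 0.00206, and 0.00866 in an exact two-sided permutation test over the 11 libraries, unadjusted). Srsf10, which represses splicing when dephosphorylated, lay at 35.1, 38.9 and 43.9 CPM in C9-BACexp NTG libraries, against 57.04, 47.7, 38.1, 46.2 and 45.1 CPM in C57BL/6J NTG libraries. Only C57BL/6J NTG library 3 reached down among the C9-BACexp values. It fell by 0.26 ± 0.07 (edgeR adjusted p = 0.0371, exact permutation p = 0.0216), the weakest of the 9 calls, and the call was lost when any one of 7 of the 11 NTG libraries was left out.

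Srsf1 and Srsf2, SR proteins described as binders of the repeat RNA, gave differences near 0. Srsf1, which takes part in the nuclear export of the repeat transcript, averaged 71.9 ± 2.06 CPM in C9-BACexp NTG libraries and 72.8 ± 8.25 CPM in C57BL/6J NTG libraries (SD, n = 6 and 5), a difference of −0.01 ± 0.06 (edgeR adjusted p = 0.946). Srsf2 averaged 52.0 ± 3.34 CPM in C9-BACexp NTG libraries and 49.6 ± 7.94 CPM in C57BL/6J NTG libraries, a difference of 0.07 ± 0.08 (edgeR adjusted p = 0.753). The other SR proteins ran between −0.17 (Srsf7) and 0.17 (Srsf3), with no call.

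The SR-related and speckle proteins held 3 of the 9 calls among 7 members. Srrm2, a core protein of the nuclear speckle, gave the largest difference of the list, with a lowest, median and highest level of 801, 1142 and 1300 CPM in C9-BACexp NTG libraries, against 699, 771, 1270, 869 and 402 CPM in C57BL/6J NTG libraries. C57BL/6J NTG library 3 lay near the top of the C9-BACexp range and library 5 far below every other one. Srrm2 rose by 0.52 ± 0.06 (edgeR adjusted p = 2.63e-05, exact permutation p = 0.0606), and its difference stayed between 0.31 and 0.71 and past the threshold whichever NTG library was left out. Son, the other core protein of the speckle, lay at 304, 330 and 381 CPM in C9-BACexp NTG libraries, against 258, 247, 318, 276 and 214 CPM in C57BL/6J NTG libraries. Here again only C57BL/6J NTG library 3 reached the C9-BACexp range. Son rose by 0.36 ± 0.05 (edgeR adjusted p = 0.00072, exact permutation p = 0.00433), and by 0.29 to 0.43 with any NTG library left out.

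Srrm1, a coactivator of splicing that works with the exon junction complex, lay at 172, 191 and 213 CPM in C9-BACexp NTG libraries, against 151, 160, 214, 186 and 100 CPM in C57BL/6J NTG libraries. It rose by 0.28 ± 0.07 (edgeR adjusted p = 0.0272, exact permutation p = 0.106), and 2 of the 5 C57BL/6J libraries lay within the C9-BACexp range or above it. The call was lost without any one of C9-BACexp NTG libraries 5 and 6 and C57BL/6J NTG libraries 2 and 5, and the difference was 0.12 (edgeR adjusted p = 0.340) without the last of these. The neuronal paralogs Srrm3 and Srrm4, which promote the inclusion of neuronal microexons, were not called, with differences of 0.20 ± 0.06 (edgeR adjusted p = 0.0622) for Srrm3 and 0.10 for Srrm4. Tra2a, a sequence-specific activator of exon inclusion, was the one member of the 59 whose NTG groups did not overlap, with 77.4, 84.8 and 89.3 CPM in C9-BACexp libraries, against 117, 95.0, 98.8, 104 and 110 CPM in C57BL/6J libraries. Of all genes tested, 2.76% did not overlap between these groups, 1.32% being lower in C9-BACexp libraries. Its difference of −0.32 ± 0.09 did not pass the threshold (edgeR adjusted p = 0.0595), while the exact permutation p, unadjusted, was 0.00216, the smallest that 6 against 5 libraries allow. Tra2b, its paralog, gave −0.29 with no call.

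To show the genes whose calls held with every single NTG library left out, Srrm2, Son and Srsf4, and the one that fell, Srsf10, the 150 bases before the start of each are printed here from RefSeq promoters of the build GRCm38.p6, 5′ to 3′ on the strand of the gene. Capitals mark GGGCGG or its reverse complement CCGCCC, the GC box bound by Sp1, and CCAAT or its reverse complement ATTGG, the CCAAT box bound by NF-Y. The windows are chr17:23803037-23803186 for Srrm2, chr16:91647674-91647823 for Son, chr4:131873487-131873636 for Srsf4 and chr4:135855921-135856070 for Srsf10, all on the plus strand, and for Srrm2 and Srsf4, with 2 and 3 starts in the table, the first listed was taken.
Srrm2: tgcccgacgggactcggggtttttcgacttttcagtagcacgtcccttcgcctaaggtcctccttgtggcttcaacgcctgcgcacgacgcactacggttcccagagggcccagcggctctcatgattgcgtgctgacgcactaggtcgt
Son: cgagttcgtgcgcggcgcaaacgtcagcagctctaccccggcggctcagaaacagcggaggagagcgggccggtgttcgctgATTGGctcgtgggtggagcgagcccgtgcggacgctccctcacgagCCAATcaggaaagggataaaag
Srsf4: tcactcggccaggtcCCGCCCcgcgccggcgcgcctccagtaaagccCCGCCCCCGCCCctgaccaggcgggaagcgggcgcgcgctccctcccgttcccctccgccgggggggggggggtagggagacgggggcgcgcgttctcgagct
Srsf10: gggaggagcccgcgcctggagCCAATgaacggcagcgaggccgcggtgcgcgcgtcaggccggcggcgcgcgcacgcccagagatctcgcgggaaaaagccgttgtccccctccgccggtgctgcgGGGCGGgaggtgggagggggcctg

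The window of Srrm2 held neither motif. That of Son held 2 CCAAT boxes, 68 and 22 bases before the start, in opposite orientations. That of Srsf4 held 3 GC boxes, 135, 103 and 97 bases before the start, and that of Srsf10 held 1 GC box 24 bases and 1 CCAAT box 129 bases before it. A promoter entry was found for 51 of the 59 members, with 81 starts, and 60.5% of those starts held the GC box, beside 28.6% of all 32851 starts in the table. For the CCAAT box these shares were 32.1% of the members' starts and 24.5% of all starts. The members' windows were also richer in G and C, with a median of 65.3% and 13 CG dinucleotides, beside 54% and 4 over all starts, and the share of a motif made of G and C moves with that composition. These are matches of letters and no measure of binding.

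In the GRCm39 annotation, 40 of the 59 members overlapped no other coding gene, 18 overlapped one on the opposite strand and 2 one on the same strand, with 1 member counted in both. Srrm2 (chr17:24009506-24043715, plus strand) overlaps Elob, Son (chr16:91443949-91476605, plus strand) overlaps Gart and Donson, Srsf10 (chr4:135583043-135602548, plus strand) overlaps Pnrc2 and Celf3 (chr3:94385602-94399505, plus strand) overlaps Riiad1 and Snx27, each on the opposite strand. The strand setting of the counting is not given in the sources used here, so counts of those 4 members can include reads of their neighbours. Srsf4 (chr4:131600816-131630471, plus strand), Srrm1 (chr4:135046676-135080632, minus strand), Celf5 (chr10:81295061-81318559, minus strand) and Qk (chr17:10411459-10539275, minus strand) overlap no other coding gene. Unspliced transcripts were part of the index, so a level counts intron reads of nuclear RNA together with spliced reads, and a retained intron cannot be told from more transcript.

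**Figure D2:**
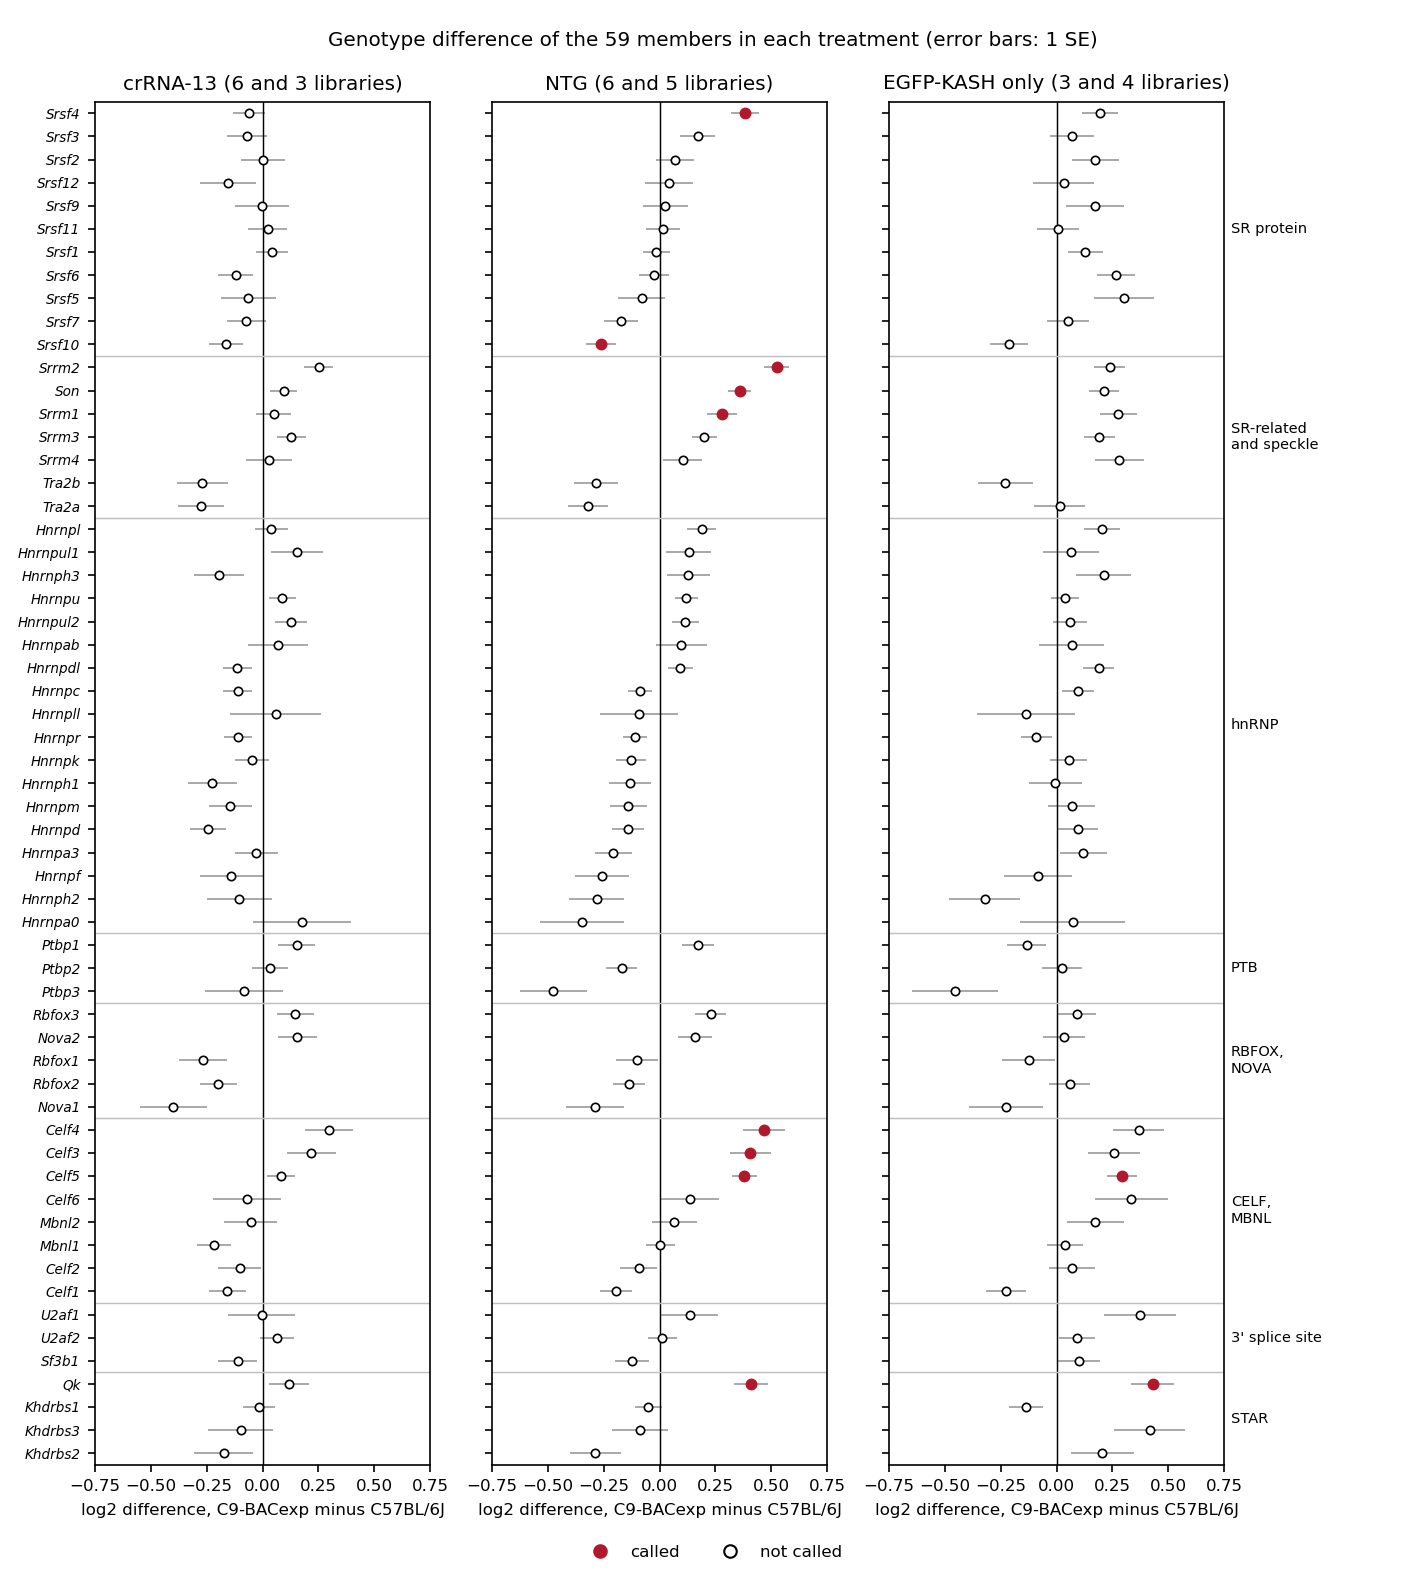
Difference on the log2 scale between C9-BACexp and C57BL/6J for all 59 members, by family, with crRNA-13, NTG and EGFP-KASH only from left to right, as the edgeR estimate ± 1 SE, with called members in red. The NTG panel holds 9 called members, the crRNA-13 panel none and the EGFP-KASH only panel 2, and the hnRNPs hold none in any panel.

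The 18 hnRNPs, abundant nuclear proteins that coat nascent transcripts, ran between −0.35 and 0.19 in C9-BACexp NTG nuclei relative to C57BL/6J NTG nuclei, with a median of −0.10 and 7 of 18 above 0. Those described as binders of the repeat RNA were not called. Hnrnph1, which binds G-rich sequence, averaged 104 ± 8.03 CPM in C9-BACexp NTG libraries and 114 ± 12.3 CPM in C57BL/6J NTG libraries (SD, n = 6 and 5), a difference of −0.13 ± 0.09 (edgeR adjusted p = 0.528). Its close relatives Hnrnph2 and Hnrnpf gave −0.28 ± 0.12 and −0.26 ± 0.12 (edgeR adjusted p = 0.263 and 0.298). The sequences of Hnrnph1, Hnrnph2 and Hnrnpf are alike, and the counting kept reads that map to several genes, so the split of reads between them is uncertain.

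Hnrnpa3, which has been found in inclusions with the dipeptide repeat proteins in human patients, averaged 41.1 ± 1.37 CPM in C9-BACexp NTG libraries and 47.6 ± 4.48 CPM in C57BL/6J NTG libraries. The difference was −0.21 ± 0.08 (edgeR adjusted p = 0.213, exact permutation p = 0.0152), and 1 C57BL/6J library, at 40.6 CPM, lay within the C9-BACexp range. Hnrnpk, which binds C-rich sequence, gave −0.13 ± 0.07 (edgeR adjusted p = 0.348), and Hnrnpul1, of the hnRNP U family, gave 0.13 ± 0.10 (edgeR adjusted p = 0.573). The hnRNP with the steadiest level in the series was Hnrnpu, a scaffold of nuclear RNA, whose highest library stood 1.31 times above its lowest, the smallest such ratio of the 59 members.

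None of the 3 PTB proteins and none of the 5 RBFOX and NOVA proteins was called under NTG by edgeR. In each group 3 had an unadjusted p under 0.05, beside 25.9% of all genes. Ptbp3, a PTB paralog best known from blood cells, gave the lowest difference of the list, −0.48 ± 0.15 (edgeR adjusted p = 0.102, exact permutation p = 0.0216), with 17.6, 19.5 and 21.5 CPM in C9-BACexp NTG libraries, against 18.1, 32.7, 26.3, 28.9 and 31.6 CPM in C57BL/6J NTG libraries. Ptbp1 and Ptbp2, of which Ptbp2 takes the place of Ptbp1 when neurons form, gave 0.17 and −0.17. Nova1, a neuronal factor that binds YCAY elements, lay at 50.9, 54.5 and 58.7 CPM in C9-BACexp NTG libraries, against 69.8, 66.2, 58.6, 68.3 and 70.7 CPM in C57BL/6J NTG libraries. The groups touched only at C57BL/6J NTG library 3, and the difference was −0.29 ± 0.13 (edgeR adjusted p = 0.275, exact permutation p = 0.00433). Rbfox3, which encodes the neuronal antigen NeuN, gave 0.23 ± 0.07 (edgeR adjusted p = 0.0918), and 0.40 (edgeR adjusted p = 0.00426) without C57BL/6J NTG library 3.

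The CELF proteins, which bind UG-rich sequence, held 3 calls among the 8 CELF and muscleblind members, all of them of the neuronal subfamily. Celf4, which acts on many neuronal transcripts, lay at a lowest, median and highest level of 1168, 1624 and 1773 CPM in C9-BACexp NTG libraries, against 1648, 887, 1509, 1048 and 704 CPM in C57BL/6J NTG libraries. Celf5 lay at 247, 300 and 353 CPM in C9-BACexp NTG libraries, against 191, 251, 373, 259 and 130 CPM in C57BL/6J NTG libraries. Celf3 lay at 143, 187 and 207 CPM in C9-BACexp NTG libraries, against 116, 148, 205, 147 and 82.1 CPM in C57BL/6J NTG libraries.

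For all 3 genes the C57BL/6J NTG libraries spread over a wider range than the C9-BACexp ones and reached into it, with library 5 the lowest each time. The differences were 0.47 ± 0.09 for Celf4 (edgeR adjusted p = 0.00767, exact permutation p = 0.0693), 0.38 ± 0.05 for Celf5 (edgeR adjusted p = 0.00056, exact permutation p = 0.143) and 0.41 ± 0.09 for Celf3 (edgeR adjusted p = 0.0201, exact permutation p = 0.0996). Without C57BL/6J NTG library 5 none of the 3 was called, with differences of 0.31 for Celf4, 0.19 for Celf5 and 0.24 for Celf3, and without any one of C9-BACexp NTG libraries 5 and 6 the call of Celf3 was lost too. Without that C57BL/6J library, 5 of the 59 members were called, and the share of all genes called in that fit is not given here. Celf1, Celf2 and Celf6 were not called, nor were Mbnl1 and Mbnl2, the muscleblind proteins that expanded CUG repeats sequester in myotonic dystrophy.

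Qk, a STAR protein that oligodendrocytes need for myelin and that marks glia, lay at 166, 181 and 261 CPM in C9-BACexp NTG libraries, against 151, 128, 77.1, 158 and 288 CPM in C57BL/6J NTG libraries. The highest library of the comparison was thus a C57BL/6J one, library 5, and the lowest was C57BL/6J library 3. Qk rose by 0.41 ± 0.08 in the fit (edgeR adjusted p = 0.00498, exact permutation p = 0.206), and the call was lost without C57BL/6J NTG library 2 or library 3, with a lowest difference of 0.18. The other STAR proteins, Khdrbs1, Khdrbs2 and Khdrbs3, were not called, and neither were U2af1, U2af2 and Sf3b1, which recognise the 3′ splice site and the branch point.

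Markers of several cell types moved with this comparison. Of 12 oligodendrocyte markers, 10 rose in C9-BACexp NTG nuclei, with a median difference of 1.06, and their summed level ran between 1081 and 2415 CPM in C9-BACexp NTG libraries and between 342 and 1981 CPM in C57BL/6J NTG libraries. Of 9 markers of striatal projection neurons 3 rose (median 1.13), with sums of 1107 to 7844 CPM in C9-BACexp NTG libraries and 615 to 1658 CPM in C57BL/6J NTG libraries. Pde10a weighed most in the striatal sum, with a mean of 1703 CPM over all libraries beside 111 CPM for Rgs9, the next. Of 6 markers of oligodendrocyte precursors 2 rose (median 0.72), of 9 astrocyte markers 3 fell (median −0.64) and of 8 neuron markers 1 fell (median −0.14). None of these lists held a gene at 0 in all libraries, and their part in the differences of the splicing factors was not tested beyond the values given next.

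Across the 27 libraries, after the mean of each group was taken out, Qk followed the summed oligodendrocyte markers closely (Pearson r = 0.941, Spearman rho = 0.888). Srrm2 and Celf4 ran against them (r = −0.773 and −0.709, rho = −0.641 and −0.664). With the group means left in, r was 0.937 for Qk, −0.380 for Srrm2 and −0.237 for Celf4. For the 5 relations computed, the permutation p within groups, for r and rho, were 1e-05 and 1e-05 for Qk (Benjamini-Hochberg adjusted 5e-05 and 5e-05), 0.00033 and 0.006 for Srrm2 (adjusted 0.00055 and 0.0075) and 0.00097 and 0.0029 for Celf4 (adjusted 0.0012 and 0.0048). The smallest p that these permutations can give is 1e-05. Without the 2 libraries farthest from the median of the markers, C9-BACexp crRNA-13 library 1 and C57BL/6J NTG library 3, r was 0.922 for Qk, −0.730 for Srrm2 and −0.635 for Celf4. Rbfox3 ran against the sum of the other neuron markers (r = −0.515, rho = −0.596, permutation p = 0.033 and 0.01, adjusted 0.033 and 0.01), and r was −0.426 without C57BL/6J EGFP-KASH only library 5 and C57BL/6J NTG library 5. These values share the library and its scaling, and each is a share of the same total. In the sum set against Rbfox3, Syt1 weighed most, with a mean of 2200 CPM beside 537 CPM for Snap25, the next.

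**Figure D3:**
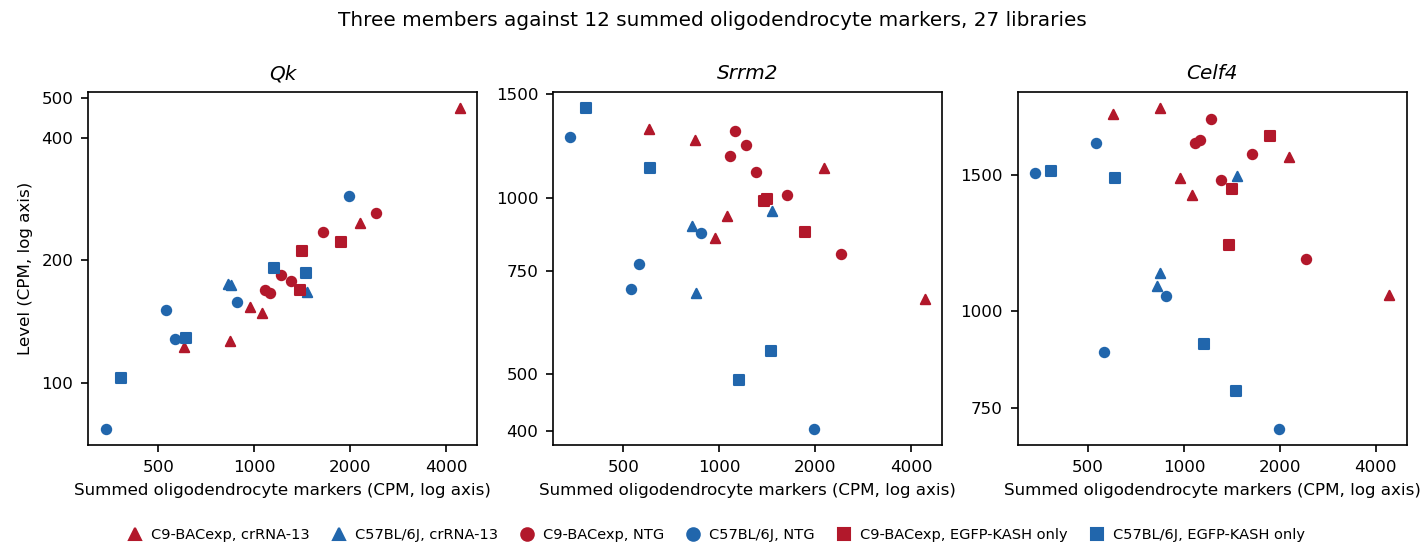
Level of Qk, Srrm2 and Celf4 in CPM against the summed CPM of 12 oligodendrocyte markers, both on log axes, 1 point for each of 27 libraries, C9-BACexp in red and C57BL/6J in blue, with triangles for crRNA-13, circles for NTG and squares for EGFP-KASH only. Qk climbs with the markers to 475 CPM in the library with the highest sum, 4408 CPM, which is C9-BACexp crRNA-13 library 1.

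The members varied together within groups. After the group means were taken out, 1 component held 55.1% of the members' variance, beside 21.2% over the 16028 genes whose mean reached 1 CPM. These gene sets are unlike in size and were not matched for level. The shares therefore do not show that the members vary together more than other genes. At one end of it 19 members correlated with the component above 0.5, led by Srrm3 (0.983), Srrm2 (0.978), Srrm4 (0.940), Nova2 (0.915) and Son (0.893), and Celf3, Celf4, Celf5, Srrm1 and Srsf4 were among them. At the other end 15 members correlated below −0.5, led by Hnrnpk (−0.912), Mbnl1 (−0.896), Hnrnph2 (−0.863), Qk (−0.821) and Ptbp2 (−0.820). A component is built to hold as much variance as it can, so these correlations are a description. Of the 8 members that rose under NTG, 7 lay at the Srrm3 end, and Qk lay at the Hnrnpk end.

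The libraries at the low end of the component were C57BL/6J NTG library 5, C9-BACexp crRNA-13 library 1 and C57BL/6J EGFP-KASH only libraries 4 and 5, and those at the high end were C57BL/6J EGFP-KASH only libraries 2 and 3 and C57BL/6J NTG library 3. Both ends thus held libraries of the same genotype and the same treatment. Srrm2 had 1424, 1123, 488 and 547 CPM in C57BL/6J EGFP-KASH only libraries 2, 3, 4 and 5, and over all 27 libraries its highest level stood 3.54 times above its lowest. For Qk this ratio was 6.16, the largest of the members, between 77.1 and 475 CPM. Srrm2 and Celf5 moved together within groups (r = 0.884, rho = 0.770, permutation p = 2e-05 and 2e-04, adjusted 5e-05 and 5e-04, and r = 0.836 without C57BL/6J NTG library 5 and C57BL/6J EGFP-KASH only library 4).

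**Figure D4:**
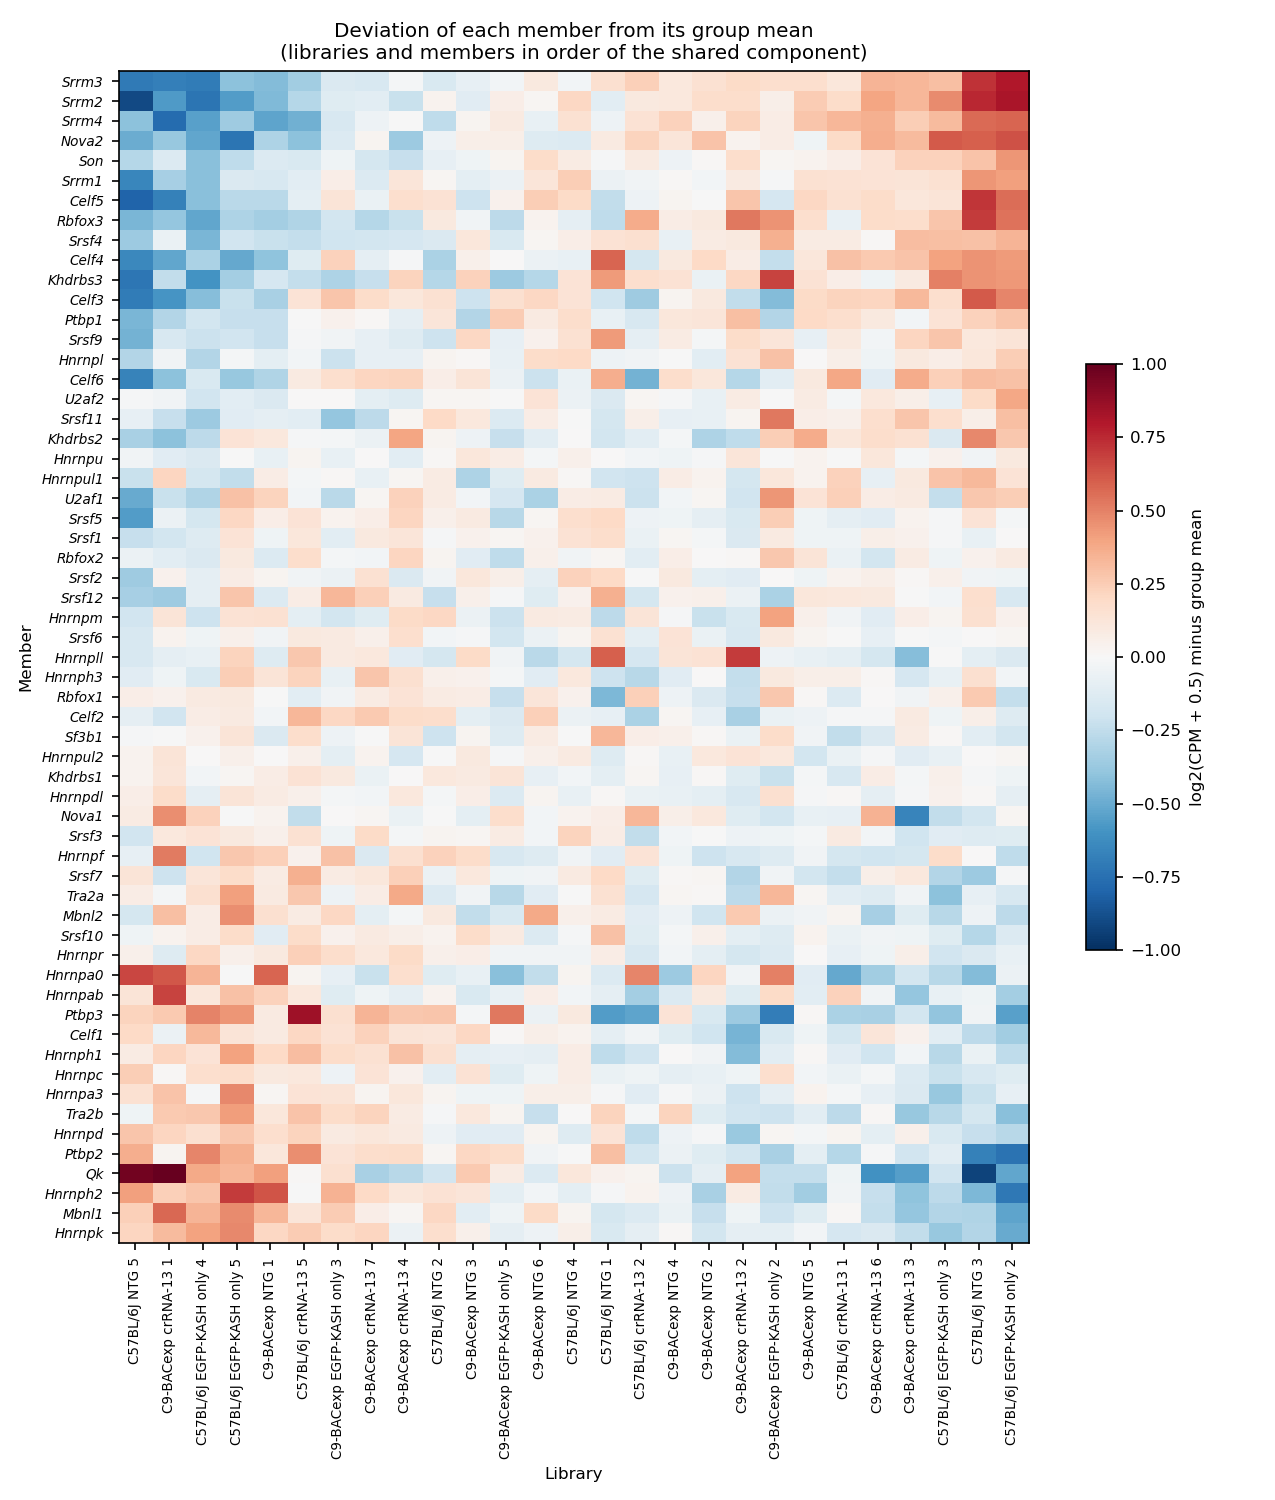
Deviation of each of the 59 members, 1 row each, from the mean of its group on the scale of log2(CPM + 0.5), in 27 libraries, 1 column each, both in the order of the shared component, with red above and blue below the group mean and the colours full at a deviation of 1. Columns at the left and right ends show the Srrm3 and Hnrnpk ends of the list moving in opposite directions, and C57BL/6J libraries stand at both ends.

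The second question was whether the splicing factors differed between the genotypes when crRNA-13 had been given. In C9-BACexp crRNA-13 nuclei against C57BL/6J crRNA-13 nuclei no member was called by edgeR, beside 1.09% of all genes, and 10 members had an unadjusted p under 0.05 (12.4% of all genes). DESeq2 and limma-trend, each with the 4 factors, called none of them either. The median over the members was −0.05. Srrm2 came nearest, at 0.25 ± 0.06 with an adjusted p of 0.0385 in edgeR, which is a fold change of 1.19 and so below the limit of 1.2. Its levels were 672, 1026 and 1311 CPM (lowest, median and highest) in C9-BACexp crRNA-13 libraries, against 949, 895 and 686 CPM in C57BL/6J crRNA-13 libraries. Of the 6 C9-BACexp libraries 3 lay above every C57BL/6J library, and the groups overlapped below them. Without C9-BACexp crRNA-13 library 1, the library with the highest oligodendrocyte sum, 3 members were called (Srrm2, Srrm3 and Mbnl1), and without C57BL/6J crRNA-13 library 2 there were 3 as well (Srrm2, Hnrnpd and Rbfox3). The shares of all genes called in those fits are not given here. Next by p came Hnrnpd, which binds AU-rich sequence (−0.24, edgeR adjusted p = 0.128), Mbnl1 (−0.22, 0.139) and Celf4 (0.30, 0.165).

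The members called under NTG had these differences with crRNA-13: Son 0.09, Srsf4 −0.06, Celf5 0.08, Qk 0.12, Celf3 0.22, Srrm1 0.05 and Srsf10 −0.16. That of Qk was −0.15 without C9-BACexp crRNA-13 library 1, the library at 475 CPM, so its sign rested on that library. A call in one treatment and none in the other does not show that the treatments differ, so the difference between the 2 genotype differences was fitted. No member was called for it by edgeR, beside 0.00459% of all genes, and 9 members had an unadjusted p under 0.05 (10.4% of all genes). The smallest p were those of Srsf4 (−0.44 ± 0.10, edgeR adjusted p = 0.122), Celf5 (−0.30, 0.203), Srrm2 (−0.27, 0.235) and Son (−0.26, 0.235). In DESeq2 with the 4 factors, Srsf4 and Celf5 passed the threshold for this difference (DESeq2 adjusted p = 0.00486 and 0.0402). The share of all genes that DESeq2 called for this difference is not given here. Between genotypes under NTG, DESeq2 called a larger share of all genes than edgeR did. The count in edgeR was 1 without C9-BACexp crRNA-13 library 1 (Qk), and 1 without C57BL/6J crRNA-13 library 5 or C57BL/6J NTG library 3 (Srsf4 each time). This contrast uses the same NTG libraries on which the members were called.

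The third question was how crRNA-13 and NTG nuclei differed within a genotype. If the labels name the enzymes rightly, enzyme and guide changed together and cannot be told apart here. In C9-BACexp mice no member was called between crRNA-13 and NTG by edgeR, beside 0.478% of all genes, and 8 had an unadjusted p under 0.05 (10.3% of all genes), with 15 of 59 members above 0 and a median of −0.06, beside −0.02 over all genes. Srsf12, an SR protein that opposes other SR proteins, lay at 11.6, 15.4 and 17.8 CPM in C9-BACexp crRNA-13 libraries, against a lowest, median and highest of 16.9, 19.2 and 20.1 CPM in C9-BACexp NTG libraries. The groups overlapped at a single crRNA-13 library, and the difference was −0.30 ± 0.10 (edgeR adjusted p = 0.129, exact permutation p = 0.00649). Without C9-BACexp crRNA-13 library 1 the count was 1, Qk. Hnrnpdl, a paralog of Hnrnpd, gave −0.16 (edgeR adjusted p = 0.133), and Srsf4 and Celf5 gave −0.16 (0.171) and −0.14 (0.183).

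In C57BL/6J mice, which lack the target, no member was called between crRNA-13 and NTG by edgeR at the limits used for that comparison, stricter in fold and with an adjusted p under 0.01, and neither was any gene (0% of all genes), while 8 members had an unadjusted p under 0.05 (11.1% of all genes). At the same limits the study, in its own fit with limma-trend, did report genes that differed in this comparison, most of them higher with crRNA-13. Ptbp2 had 65.4, 70.2 and 110 CPM in C57BL/6J crRNA-13 libraries, against 124, 102, 62.7, 101 and 130 CPM in C57BL/6J NTG libraries, and the groups overlapped. Its difference was −0.33 ± 0.09 (edgeR adjusted p = 0.0850). Srsf4 gave 0.28 ± 0.08 (0.0998), Son 0.19 (0.202) and Celf5 0.16 (0.337). For Srsf4 the estimates in C9-BACexp and C57BL/6J mice lay on opposite sides of 0, and the same held for the other 7 members that rose under NTG. Each of these estimates uses NTG libraries that also entered the genotype calls.

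**Figure D5:**
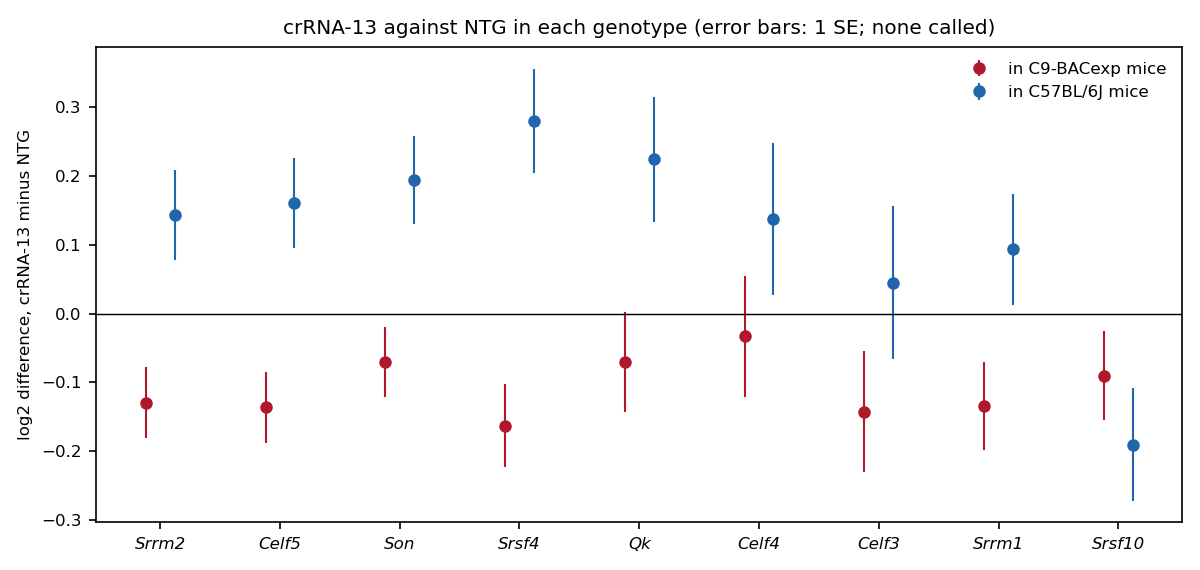
Difference on the log2 scale between crRNA-13 and NTG in C9-BACexp mice (red) and in C57BL/6J mice (blue) for the 9 members called between genotypes under NTG, as the edgeR estimate ± 1 SE. None of the 18 differences was called, Srsf4 stands at −0.16 in C9-BACexp mice and at 0.28 in C57BL/6J mice, and both sets share the NTG libraries with the calls that chose these genes.

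Against EGFP-KASH only, no member was called by edgeR in any of the 4 comparisons with a guide. In C9-BACexp mice the percentages of all genes called were 0.923 for crRNA-13 and 0.0322 for NTG, and in C57BL/6J mice they were 0.404 for crRNA-13 and 0 for NTG. In C9-BACexp mice an unadjusted p under 0.05 was found for 7 members with crRNA-13 (12.2% of all genes) and 6 with NTG (11.2%), and in C57BL/6J mice for 8 with crRNA-13 (11.2%) and 6 with NTG (7.86%). For crRNA-13 in C57BL/6J mice the count was 4 without C57BL/6J EGFP-KASH only library 2, with Celf5, Ptbp2, Srrm2 and Srrm3. For crRNA-13 in C9-BACexp mice it was 1 without C9-BACexp crRNA-13 library 1 (Qk) or without C9-BACexp EGFP-KASH only library 5 (Ptbp1). The shares of all genes called with those libraries left out are not given here. The smallest adjusted p were those of Hnrnpc, which guards against the use of cryptic Alu exons in human cells (−0.21, edgeR adjusted p = 0.0980, crRNA-13 in C9-BACexp mice), and of Celf5 (0.27, 0.0918, crRNA-13 in C57BL/6J mice). For NTG the smallest p belonged to Celf5 in C9-BACexp mice (0.20, edgeR adjusted p = 0.238) and to Srsf10 in C57BL/6J mice (0.21, 0.523).

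Nuclei that had received EGFP-KASH only gave the genotype comparison with no Cas13 enzyme. Here 2 members rose in C9-BACexp EGFP-KASH only nuclei and none fell, beside 2.86% of all genes in either direction and 1.59% that rose. An unadjusted p under 0.05 was found for 19 members (18.9% of all genes), and 46 of 59 members lay above 0, with a median of 0.07, beside −0.03 over all genes. Qk had 169, 223 and 211 CPM in C9-BACexp EGFP-KASH only libraries, against 103, 129, 192 and 187 CPM in C57BL/6J EGFP-KASH only libraries, and rose by 0.43 ± 0.10 (edgeR adjusted p = 0.0168, exact permutation p = 0.229). Celf5 had 229, 281 and 264 CPM in C9-BACexp libraries of this treatment, against 313, 232, 159 and 175 CPM in C57BL/6J libraries, and rose by 0.29 ± 0.07 (edgeR adjusted p = 0.0232, exact permutation p = 0.371). The groups overlapped for both genes, with the highest Celf5 level in a C57BL/6J library. For each gene the call was lost when any one of 4 of the 7 libraries was left out, and 4 of 12 oligodendrocyte markers rose in the same comparison (median 0.96). With C57BL/6J EGFP-KASH only library 2 left out, 8 members were called. The share of all genes called in that fit is not given here, so the count is no result about the members.

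Srrm2 and Srrm1 came next, with 0.24 (edgeR adjusted p = 0.0704) and 0.28 (0.0877). Srrm2 had 987, 873 and 992 CPM in C9-BACexp EGFP-KASH only libraries, all of them between the pair of high and the pair of low C57BL/6J libraries given above, and its difference ran between 0.003 and 0.50 with single libraries left out. The groups did not overlap for 2 members, Srsf2 and Srsf6, both higher in C9-BACexp libraries, beside 3.3% of all genes in that direction and 6.13% in either direction.

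Averaged over the 3 treatments, with all 27 libraries, 6 of the 59 members were called, which is 10.2%, beside 9.73% of all genes (4.94% that rose and 4.79% that fell), and 24 had an unadjusted p under 0.05 (29.1% of all genes). Srrm2 (0.34 ± 0.04), Celf4 (0.38 ± 0.06), Qk (0.32 ± 0.05) and Celf3 (0.29 ± 0.06) rose in C9-BACexp nuclei, and Nova1 (−0.31 ± 0.09, edgeR adjusted p = 0.0201) and Ptbp3 (−0.34 ± 0.10, edgeR adjusted p = 0.0251) fell. Celf5, Son, Srsf4, Srrm1 and Srsf10 had adjusted p between 6.99e-05 and 0.00781 in the same edgeR fit, with fold changes under 1.2. Among the binders of the repeat RNA, Hnrnph2 came nearest, at −0.24 ± 0.08 (edgeR adjusted p = 0.0572). The 3 treatments enter this average together with the NTG libraries, so it is not a separate test of the NTG calls. Without the factors edgeR called none of the 59 members, beside 1.6% of all genes, and 11 members had an unadjusted p under 0.05, beside 17.1% of all genes. With any one of the 27 libraries left out, Celf4 stayed called, while Ptbp3 was lost in 5 cases, Celf3 in 4, Qk and Nova1 in 3 each and Srrm2 in 1. The difference of Ptbp3 was −0.18 (edgeR adjusted p = 0.265) without C57BL/6J crRNA-13 library 5. Without C57BL/6J EGFP-KASH only library 4 the count of called members was 2, and without C9-BACexp NTG library 1 it was 9, with the shares of all genes in those fits not given here. All 12 oligodendrocyte markers rose in this average, and 7 of 9 astrocyte markers fell, and their part in these calls was not tested.

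Other genes of splicing, 91 in 4 lists, gave 7 that rose and 2 that fell in C9-BACexp NTG nuclei, 9.89% of the 91 beside 6.6% of all genes. These lists were not matched to all genes for level either. None of 54 core spliceosome genes was called by edgeR, and 15 of them had an unadjusted p under 0.05, beside 25.9% of all genes. Of 22 accessory factors 4 rose and 2 fell, with Elavl3, a neuronal binder of AU-rich sequence (0.35, edgeR adjusted p = 0.000707), Acin1, a partner of the exon junction complex (0.34, 0.00487), and Rbm25, an SR-like factor (0.33, 0.00609), among those that rose and Tia1, a U-rich binder that aids 5′ splice site choice (−0.35, 0.00991), among those that fell. Of 9 SR protein kinases and related genes 1 rose. Of 6 speckle and paraspeckle genes 2 rose, and Neat1, the noncoding RNA on which paraspeckles form, gave 1.27 ± 0.24 (edgeR adjusted p = 0.00509). With crRNA-13 only Elavl3 was called among the 91 (0.33, edgeR adjusted p = 0.00487), which is 1.1% beside 1.09% of all genes. In nuclei with EGFP-KASH only, Sfpq, a paraspeckle protein, was the one called (0.42, 0.0217), 1.1% beside 2.86% of all genes. Without the factors edgeR called 0 of the 91 in each of these 3 genotype comparisons, beside at most 0.0276% of all genes.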

How the data were processed

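RNA of sorted EGFP-KASH+ nuclei was depleted of ribosomal RNA and sequenced as single-end reads. Per the study's methods and the submitters' processing notes, the authors quantified reads with Salmon 1.10.0 against spliced and unspliced mouse transcripts (GRCm39) with human C9ORF72 transcripts and EGFP-KASH added, and deposited expected counts per gene, scaled by length and library with tximport (R 4.3.1). Protocol fields of the labels describe transfected cells, so the study's methods were followed for the mice.

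The 27 libraries, each of 1 mouse, were grouped by the labels. Estimated counts were rounded, genes filtered (smallest count 10, smallest total 15), scaled by TMM and fitted in edgeR 4.0.16 (R 4.3.3) with 6 groups and 4 factors of unwanted variation from the residuals. The study used limma-trend with 4 factors. Adjusted p (Benjamini-Hochberg) covered all 21768 genes, jointly over 5 of the 11 comparisons and within each of the others, and members were called at a fold over 1.2 and an adjusted p under 0.05 unless stated. Single members also had an exact two-sided permutation test on log2(CPM + 0.5). The code was also run on simulated counts, whose outcome is not given here. Those counts did not model the mixture of cell types in these libraries, so they give no error rate for the calls.

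Members and lists were chosen with earlier results of these data known. Named with values are all called members, those with the smallest p up to 4 in comparisons with fewer calls, 8 binders of the repeat RNA, Rbfox3 and Qk, and at most 5 called genes a comparison from the other splicing lists. Other genes and libraries singled out were chosen after their values were seen. Alternatives were no or 2 factors, DESeq2 1.42.0, limma 3.58.1, other scaling, filters and p adjustment, a replicate block and single libraries left out. Counts with libraries left out, 2 factors or a replicate block are given without the share of all genes called there. They show how far a count moved and are no result about the members. Promoter windows came from RefSeq (GRCm38.p6).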

Additional observations from a re-analysis of the deposited data

Results flagged for a closer look

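Of 236 groups of 4 or more libraries examined for the members, 9 (3.81%) held a library far from all the others of its group by Dixon's test, where chance gives about 1 in 20. Qk was highest in C9-BACexp crRNA-13 library 1, at 475 CPM against 122 to 247 CPM in the other libraries of that group, and Hnrnpab was highest in the same library, at 19.98 CPM against 9.31 to 12.01 CPM. That library also had the highest oligodendrocyte marker sum, 4408 CPM. Hnrnph1 reached 119 CPM in C9-BACexp NTG library 1 (others 96.9 to 104 CPM). Hnrnpul1 was lowest in C9-BACexp NTG library 3, at 63.8 CPM (others 81.0 to 84.5 CPM), and Celf2 was highest in C9-BACexp NTG library 6, at 5376 CPM (others 4243 to 4612 CPM).

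In C57BL/6J mice, Srsf5 was lowest in NTG library 5, at 129 CPM (others 196 to 218 CPM), and Hnrnpll was highest in NTG library 1, at 98.8 CPM (others 57.6 to 60.9 CPM). In C57BL/6J EGFP-KASH only library 2, Rbfox1 was lowest, at 6781 CPM (others 8274 to 8557 CPM), and U2af2 was highest, at 87.7 CPM (others 58.7 to 63.2 CPM).

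The marker sums gave 4 such libraries. The neuron sum was 4927 CPM in C9-BACexp NTG library 5 (others 4201 to 4404 CPM) and 5323 CPM in C57BL/6J EGFP-KASH only library 5 (others 4736 to 4789 CPM). The striatal projection neuron sum was 7844 CPM in C9-BACexp NTG library 6 (others 1107 to 2626 CPM), and the endothelial and mural sum was 45.6 CPM in C57BL/6J EGFP-KASH only library 4 (others 25.5 to 28.0 CPM).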

How the results depend on the processing

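No called result reversed its direction under the alternatives run. The count of called members between genotypes under NTG, 9, was 0 in edgeR without factors, 0 in DESeq2 and 0 in limma-trend without factors, and 3 with 2 factors (Srrm2, Son and Srsf4). With EGFP-KASH only, the count of 2 was 0 without factors in each of the 3 tools, 0 with 2 factors, and 5 in DESeq2 with 4 factors (Qk, Celf5, Celf4, Srrm1 and Srsf6), beside 5.89% of all genes. For the mean of 3 treatments the count of 6 was 0 in edgeR and limma-trend without factors and 1 in DESeq2 without factors (Nova1), beside 1.6% of all genes in edgeR and 4.51% in DESeq2. In C57BL/6J mice, between crRNA-13 and EGFP-KASH only, the count of 0 was 1, Celf5, with a mean of at least 1 CPM required and in DESeq2 with 4 factors. For the difference between the genotype differences it was 2 in DESeq2 with 4 factors (Srsf4 and Celf5). Left out together, C57BL/6J NTG libraries 3 and 5, an alternative chosen after seeing the data, gave 6 called members under NTG.

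With single libraries left out, the counts ran from 5 to 12 for the genotypes under NTG (5 without C57BL/6J NTG library 5), from 0 to 3 with crRNA-13 (3 without C9-BACexp crRNA-13 library 1 or C57BL/6J crRNA-13 library 2), from 1 to 8 with EGFP-KASH only (8 without C57BL/6J EGFP-KASH only library 2), from 2 to 9 for the mean of 3 treatments (2 without C57BL/6J EGFP-KASH only library 4, 9 without C9-BACexp NTG library 1), from 0 to 1 for crRNA-13 against NTG in C9-BACexp mice, from 0 to 1 between crRNA-13 and EGFP-KASH only in C9-BACexp mice, from 0 to 4 for the same in C57BL/6J mice (4 without C57BL/6J EGFP-KASH only library 2), and from 0 to 1 for the difference between the genotype differences. The remaining comparisons stayed at 0. The shares of all genes called in these fits are not given here.

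Libraries with the same replicate number did not deviate together in the comparison of genotypes under NTG (5 pairs, correlations −0.16 to −0.02). Elsewhere 1 of 5 pairs passed 0.1 for crRNA-13 against NTG in C9-BACexp mice (highest 0.29), 2 of 4 for NTG against EGFP-KASH only in C57BL/6J animals (highest 0.20) and both pairs for crRNA-13 and EGFP-KASH only in C57BL/6J animals (0.15 and 0.25). In no comparison with 3 or more pairs did every pair pass 0.1, so the number was not taken as a pairing. With the number as a replicate block, the count of called members was 6 under NTG, 1 between genotypes with crRNA-13 (Qk), 1 in C57BL/6J mice between crRNA-13 and EGFP-KASH only (Celf5) and 3 for the mean of 3 treatments (Celf4, Qk and Nova1).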
